A study of Mus musculus with 8 samples.

Results

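The 6 genes described here encode interferon-linked proteins that act on RNA, DNA or the building blocks of DNA: Eif2ak2 (the kinase PKR), Adar (the RNA editing enzyme ADAR1), Apobec3 (a cytidine deaminase), Pnpt1 and Isg20 (both exoribonucleases) and Samhd1 (a dNTP hydrolase). They were taken by name from the 55367 genes of a count table, with earlier results of these data known, and all 6 were found and passed the filter on low counts. The cells were Neuro2a, an established mouse neuroblastoma line. In CRISPR activation (CRISPRa), a Cas9 without cutting activity carries an activator domain to a place in the genome set by a single guide RNA (sgRNA). CRISPRa cultures were transfected with 750 ng of sgRNA plasmid and 750 ng of plasmid for sadCas9-VP64, the Staphylococcus aureus form of that protein fused to the activator VP64. The no-sgRNA cultures received the sadCas9-VP64 plasmid and no sgRNA plasmid, in an amount the labels do not give separately. Both groups therefore share the cell line, the sadCas9-VP64 plasmid and a transfection. They differ in the sgRNA plasmid, and the amount of sadCas9-VP64 plasmid and the total DNA may differ as well. The guide, the plasmid that carries it and the amount of DNA therefore cannot be told apart. The series is directed at Scn2a, a sodium channel gene. The labels list 8 samples, 4 in each group, and counts were analysed for 3 CRISPRa libraries (replicates 2, 3 and 5) and 3 no-sgRNA libraries (replicates 2, 3 and 4) of poly(A)-enriched RNA. The time between transfection and harvest is not given in the sources used here. Nothing in the labels says that replicates came from separate cultures, so p-values measure the spread between these samples, which may be technical.

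Type I interferons are secreted when a cell detects foreign nucleic acid, and they raise a large set of genes through transcription factors that include STAT2 and IRF9. The proteins of this set that handle nucleic acids work at different steps. PKR binds double-stranded RNA and phosphorylates the translation factor eIF2 alpha, which slows protein synthesis, and ADAR1 converts adenosine to inosine in double-stranded RNA, which keeps a cell's own RNA from setting off such sensors. PNPase, the product of Pnpt1, degrades RNA in mitochondria, and ISG20 trims single-stranded RNA and DNA from the 3′ end. APOBEC3 converts cytosine to uracil in single-stranded DNA of retroviruses, and SAMHD1 lowers the supply of dNTPs that viral and cellular DNA synthesis needs.

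Total counts lay between 29739422 and 34248514 per library, and the 6 genes together took 0.0633% ± 0.000477 of them with CRISPRa and 0.0294% ± 0.00152 without the guide (SD, n = 3). Within each group the libraries numbered 2 and 3 were the closer pair, with a chi-square per degree of freedom of 4.73 for CRISPRa and 5.98 for no sgRNA. CRISPRa replicate 5 and no-sgRNA replicate 4 stood further from these, at 14.1 to 17.1, so results are also given without both. Scn2a was at 7.75, 8.55 and 7.12 CPM (counts scaled to a common library size) in the CRISPRa libraries, the no-sgRNA libraries at 6.23, 6.50 and 4.11 CPM, and its groups did not overlap but the difference did not pass the test (log2 fold change 0.48, edgeR adjusted p 0.0899). Over 8 samples Scn2a passed in the authors' deposited table, at 0.62 on the log2 scale with an adjusted p of 0.00138. Of 8 markers of the neuroblastoma line, 5 passed the filter, among them Hand2 and Tubb3, while Nefl and Nefm had at most 6 counts in any library. Hand2 fell with CRISPRa (log2 fold change -0.43, edgeR adjusted p 0.000507) and Tubb3 rose (0.20, edgeR adjusted p 0.0486). Of 16 markers of other cell types, 6 had 0 counts in all libraries, and their summed level was 19.5 to 26.4 CPM with CRISPRa against 30.7 to 38.1 CPM in the controls. The 6 macrophage and microglia markers together reached at most 0.277 CPM with CRISPRa against 0.459 CPM in the controls, with Adgre1, Itgam and Cx3cr1 at 0. Pdgfra, a fibroblast marker, fell (12.7 ± 1.92 against 20.6 ± 1.91 CPM, edgeR adjusted p 0.00172), and Cdh5, an endothelial marker, rose (1.70 ± 0.369 against 0.408 ± 0.280 CPM, edgeR adjusted p 0.0105; SD, n = 3). Other markers of these cell types lay in the opposite direction and did not pass. The fibroblast marker Col1a1 was at 0.696 ± 0.338 against 0.412 ± 0.295 CPM (edgeR adjusted p 0.435). The endothelial marker Pecam1 was at 7.75 ± 2.16 against 10.8 ± 1.64 CPM (SD, n = 3, edgeR adjusted p 0.103). The part of these markers in the results below was not tested.

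Sequence before the annotated start of each gene was searched for the sites at which interferon-activated factors are known to bind. These windows are shown because the genes differed together between the groups, and the letters let the genes be compared. The 11 RefSeq promoters of the 6 genes (GRCm38.p6) were searched over the 250 bases before the start for the core of the interferon-stimulated response element (ISRE), GAAA, any 2 bases and GAAA, or the reverse complement TTTC, any 2 bases and TTTC, and for the core of the gamma-activated site (GAS), TTCNNNGAA, which reads the same on both strands; the 2 cores may overlap. An ISRE core lay in 1 of the 11 promoters, of Apobec3, and 2.98% of all 32851 promoters hold one there. A GAS core lay in 3 of the 11, of Eif2ak2, Isg20 and Samhd1, and 7.02% of all promoters hold one there. Over the whole 300-base window, which includes 50 bases after the start, Eif2ak2 also had an ISRE core, beginning at base 19 of its transcript, and Adar a GAS core, beginning at base 23 from an internal start at position 89730718. The shares of all promoters over that window were 3.44% for the ISRE core and 8.30% for the GAS core. The 30 bases around each match read as follows, in the direction of the gene, with the core in capitals.
Eif2ak2, ISRE core, chr17:78882535-78882564, minus strand: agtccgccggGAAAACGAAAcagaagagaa
Apobec3, ISRE core on the opposite strand, chr15:79892258-79892287, plus strand: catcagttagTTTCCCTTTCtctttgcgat
Eif2ak2, GAS core, chr17:78882731-78882760, minus strand: ctgcagagctTTCCCAGAAtggaagccagg
Isg20, GAS core, chr7:78913341-78913370, plus strand: ctggggagggTTCTTGGAAtttttcctttt
Samhd1, GAS core, chr2:157135312-157135341, minus strand: acaccaccctTTCGGAGAAacacaagggcg
Adar, GAS core, chr3:89730730-89730759, plus strand: gggaagccttTTCAAGGAAacgaaagtgaa
The ISRE core of Apobec3 began 140 bases before a start at position 79892408, and this match lies inside the annotated span of the gene. The GAS cores began 178 bases before the start in Eif2ak2, 73 in Isg20 and 235 in Samhd1. Annotated exons of any gene and strand (GENCODE M21) cover 100% of the 250-base window in Apobec3 and in Eif2ak2, 67.6% in Samhd1 and 0% in Isg20. Pnpt1 had neither core in its window. With 1 mismatch allowed among the 8 fixed bases of the ISRE core, a search added after the data were seen, 8 of the 11 promoters, from 5 of the 6 genes, had a match before the start, and so did 31.4% of all promoters. The match of Pnpt1 began 67 bases before its start and is in capitals in its 250 bases, shown because no exact core was in this window.
Pnpt1, chr11:29130494-29130743, plus strand: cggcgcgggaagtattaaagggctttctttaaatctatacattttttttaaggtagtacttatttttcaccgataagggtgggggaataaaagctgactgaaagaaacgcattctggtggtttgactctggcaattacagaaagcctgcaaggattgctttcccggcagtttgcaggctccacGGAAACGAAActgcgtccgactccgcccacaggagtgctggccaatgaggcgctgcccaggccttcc
The letters in capitals in Pnpt1 also occur in the Adar window above, after its internal start. The search with 1 mismatch covered only bases before a start and did not count them. These matches describe letters only, and a missing match says nothing about a factor.

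Of the 6 genes, 5 rose with CRISPRa and none fell, and the sixth, Apobec3, did not pass the test. Over all 15117 genes tested, 9.47% were called higher (edgeR's quasi-likelihood test, Benjamini-Hochberg adjusted p under 0.05). Their median log2 fold change was 0.95, against -0.0071 for all genes tested, and ranged from 0.29 for Apobec3 to 2.08 for Eif2ak2. For each of the 6, the lowest CRISPRa library exceeded the highest control, which held for 17.7% of the genes tested (36.4% had groups apart in either direction). Over all genes tested, 18.7% were called in either direction.

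**Figure D1:**
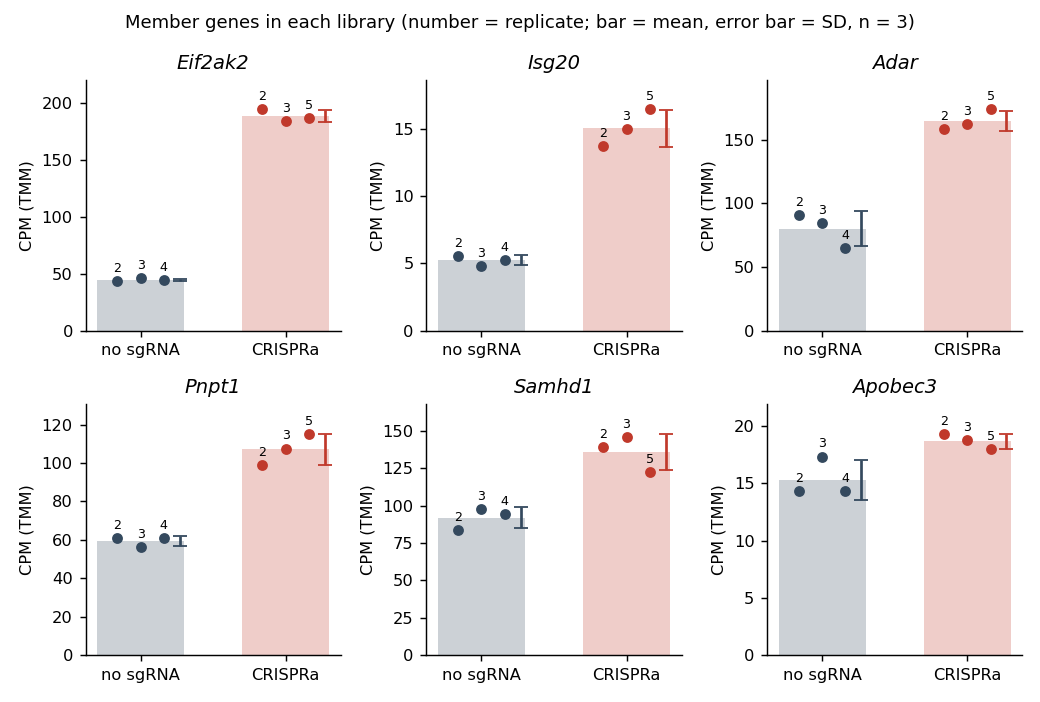
Level of each of the 6 genes in each library, in TMM-normalised CPM, with the replicate number beside each point, the mean as a bar and the SD as an error bar (n = 3 per group). No group overlaps the other in any panel, and the gap is widest for Eif2ak2 and narrowest for Apobec3, at 18.0 against 17.3 CPM for the nearest libraries.

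Eif2ak2 (chromosome 17, 78852564 to 78882573, minus strand, protein coding, GRCm38), the gene of PKR, had the largest difference of the 6. It was at 194, 184 and 187 CPM in CRISPRa replicates 2, 3 and 5 and at 43.4, 45.9 and 44.0 CPM in no-sgRNA replicates 2, 3 and 4, from 6693, 6018 and 6051 counts against 1323, 1362 and 1394. The lowest CRISPRa library was far above the highest control, and each group was narrow. Its mean rose from 44.4 ± 1.29 to 188 ± 5.20 CPM (SD, n = 3), which is 4.24-fold, or 2.08 on the log2 scale (SE 0.07, edgeR adjusted p 3.57e-12). Only 114 of the genes tested (0.754%) had a larger log2 fold change, and all of these were called. Exons of other genes on the opposite strand cover 4.32% of its exon bases.

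The pathway around PKR was described with 18 other genes for the eIF2 alpha kinases, their regulators, eIF2 and its exchange factor eIF2B, and the factors downstream of eIF2 alpha phosphorylation. All 18 passed the filter; 1 rose, 2 fell and 15 did not pass the test, with a median log2 fold change of -0.04. Over all genes tested, 9.25% were called lower. None of the other 3 kinases of eIF2 alpha passed: Eif2ak1, the heme-regulated kinase, had a log2 difference of -0.04 (edgeR adjusted p 0.758), Eif2ak3, the endoplasmic reticulum stress kinase PERK, -0.03 (0.889), and Eif2ak4, the amino acid sensor GCN2, -0.14 (0.245). Ppp1r15a, which encodes the stress-induced subunit GADD34 that directs a phosphatase to eIF2 alpha, stood at 531, 521 and 708 CPM against 409, 404 and 360 CPM. CRISPRa replicate 5 was the highest and no-sgRNA replicate 4 the lowest. It rose by 0.58 on the log2 scale (SE 0.10, edgeR adjusted p 0.000948). Prkra, the gene of the PKR activator PACT, fell from 48.6 ± 1.45 to 36.5 ± 3.06 CPM (SD, n = 3), a difference of -0.41 on the log2 scale (SE 0.08, edgeR adjusted p 0.00343). Eif2b5, a subunit of eIF2B, fell by 0.20 on the log2 scale (edgeR adjusted p 0.0428), and it lost the call in each of the 6 fits that left out 1 library and under some other scalings and filters. Atf4, whose translation rises when eIF2 alpha is phosphorylated, was at 1099 ± 9.79 against 1116 ± 65.4 CPM (SD, n = 3; edgeR adjusted p 0.855), and its target Ddit3 was at 266 ± 33.2 against 225 ± 10.4 CPM (SD, n = 3; edgeR adjusted p 0.0502), which was called in 10 of 15 other fits. Phosphorylation of eIF2 alpha was not measured in these data.

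Adar (chromosome 3, 89715022 to 89753446, plus strand, protein coding, GRCm38) showed the third largest fold of the 6. It was at 158, 163 and 174 CPM in CRISPRa replicates 2, 3 and 5 and at 91.1, 84.7 and 64.5 CPM in no-sgRNA replicates 2, 3 and 4. The groups were well apart, and no-sgRNA replicate 4 lay below the other controls. From a mean of 80.1 ± 13.8 it rose to 165 ± 7.95 CPM (SD, n = 3), which is 2.06-fold, or 1.04 on the log2 scale (SE 0.10, edgeR adjusted p 4.54e-06). ADAR1 is made in a constitutive and an interferon-inducible form from different starts of the gene, and counts per gene do not separate them. Exons of Chrnb2, a nicotinic receptor gene on the opposite strand, cover 16.8% of the Adar exon bases. The counting is not stated to use strand, and whether reads there were given to either gene or left out is not known. Chrnb2 also rose, from 17.5 ± 0.199 to 28.7 ± 3.31 CPM (SD, n = 3; log2 fold change 0.71, edgeR adjusted p 0.000309).

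Apobec3 (chromosome 15, 79891659 to 79915906, plus strand, protein coding, GRCm38), the single APOBEC3 gene of the mouse, had the smallest difference. It was at 19.3, 18.7 and 18.0 CPM in CRISPRa replicates 2, 3 and 5 and at 14.3, 17.3 and 14.3 CPM in no-sgRNA replicates 2, 3 and 4. The groups did not overlap, but no-sgRNA replicate 3 came close to the lowest CRISPRa library. With means of 18.7 ± 0.650 and 15.3 ± 1.75 CPM (SD, n = 3), a 1.22-fold difference, the log2 fold change was 0.29 (SE 0.11) and did not pass the threshold (edgeR adjusted p 0.0955, unadjusted p 0.0238). Of its 50-base words in GENCODE M21 transcripts, 6.53% also occur in another gene, and exons of other genes cover 8.21% of its exon bases, so its value is less certain than those of Pnpt1 and Isg20, for which both shares are 0.

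A list of 14 other genes held editing and deaminase genes and, beside them, the sensor genes Ifih1 and Zbp1. Of these 14, 6 passed the filter, with a median log2 fold change of 0.09. Among the 6, 2 rose, none fell and 4 did not pass the test. Adarb1, the gene of the second RNA adenosine deaminase ADAR2, was at 52.1 ± 0.798 against 46.4 ± 4.23 CPM (SD, n = 3; edgeR adjusted p 0.181), so its log2 fold change of 0.17 did not pass where that of Adar did. Both genes that rose were the sensor genes, and no editing or deaminase gene that was tested in this fit passed. Ifih1, which encodes the double-stranded RNA sensor MDA5, was at 35.1, 37.2 and 49.5 CPM against 1.05, 2.02 and 0.506 CPM, a difference of 5.10 on the log2 scale (SE 0.27, edgeR adjusted p 2.13e-09). Zbp1, whose protein shares with ADAR1 a domain for left-handed nucleic acid, had 101, 55 and 153 counts against 0 in every control and was at least 31.7-fold higher, taking 3 counts per library as the floor. With Zbp1 set to that bound the median of the list was again 0.09, as it would be for any value above that of Adarb1. Zbp1 passed the filter only through its CRISPRa counts, so among the 6 genes tested it could be counted only as a rise. Among the deaminase relatives, Apobec1 had 12, 10 and 26 counts with CRISPRa and 2, 0 and 0 without the guide and did not pass the filter. With no filter it was called (log2 fold change 4.25, edgeR adjusted p 0.00275), as it was in each fit with 1 library left out that tested it. In the latter it could pass the filter only through its CRISPRa counts. All 5 fits share libraries, so these calls are not separate support. Apobec2 had at most 2 counts in any library, and Apobec4, Adad1 and Adad2 had 0 in all 6, below a floor of 0.0871 to 0.101 CPM. Adat3 also had 0 counts, and all of its exon bases lie in exons of other genes on the same strand.

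Pnpt1 (chromosome 11, 29130744 to 29161828, plus strand, protein coding, GRCm38) was at 98.7, 108 and 115 CPM in CRISPRa replicates 2, 3 and 5 and at 60.7, 56.2 and 60.9 CPM in no-sgRNA replicates 2, 3 and 4. The controls were close together and every CRISPRa library was well above them. The mean rose from 59.3 ± 2.64 to 107 ± 8.17 CPM (SD, n = 3), which is 1.81-fold, or 0.85 on the log2 scale (SE 0.08, edgeR adjusted p 1.7e-06).

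Isg20 (chromosome 7, 78913424 to 78920396, plus strand, protein coding, GRCm38) was the least abundant of the 5 genes that rose and had the second largest fold. It had 472, 488 and 533 counts in CRISPRa replicates 2, 3 and 5 and 169, 143 and 167 counts in no-sgRNA replicates 2, 3 and 4. These are 13.7, 14.9 and 16.4 CPM against 5.54, 4.82 and 5.28 CPM, again with no overlap. The rise from 5.21 ± 0.367 to 15.0 ± 1.37 CPM (SD, n = 3) is 2.88-fold, or 1.53 on the log2 scale (SE 0.14, edgeR adjusted p 2.33e-06).

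A list of 16 other genes for exoribonucleases and mitochondrial RNA handling showed small differences in both directions. Of these, 15 passed the filter; 2 rose, 2 fell and 11 did not pass the test, with a median log2 fold change of 0.03. Xrn1 and Xrn2, the cytoplasmic and nuclear 5′ to 3′ exonucleases, rose by 0.37 (edgeR adjusted p 0.00482) and 0.27 on the log2 scale (edgeR adjusted p 0.00545). Xrn1 went from 50.5 ± 3.94 to 65.2 ± 2.89 CPM and Xrn2 from 187 ± 4.93 to 226 ± 6.46 CPM (SD, n = 3). Grsf1, which encodes an RNA-binding protein of mitochondrial RNA granules, fell from 328 ± 27.3 to 257 ± 23.5 CPM (SD, n = 3; log2 fold change -0.35, edgeR adjusted p 0.00628). Eri1, a 3′ to 5′ exonuclease of histone mRNA, fell by 0.20 on the log2 scale (edgeR adjusted p 0.0448) and lost the call without CRISPRa replicate 2 or 3 and without no-sgRNA replicate 3 or 4, as well as under RLE scaling, library size only and no filter, so that it was called in 8 of 15 other fits. The direct partner of PNPase in mitochondria, the helicase gene Supv3l1, was at 37.2 ± 1.90 against 42.0 ± 1.46 CPM (SD, n = 3; edgeR adjusted p 0.158). The relatives of Isg20 did not pass either: Isg20l2 had a log2 difference of -0.06 (edgeR adjusted p 0.673) and Aen of 0.03 (edgeR adjusted p 0.822). Slirp had at most 11 counts, and 97.8% of its exon bases lie opposite exons of other genes.

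Samhd1 (chromosome 2, 157097533 to 157135265, minus strand, protein coding, GRCm38) was at 140 CPM in CRISPRa replicate 2, 146 CPM in replicate 3 and 122 CPM in replicate 5. The no-sgRNA replicates 2, 3 and 4 were at 83.7, 97.5 and 94.6 CPM. CRISPRa replicate 5 was the lowest of its group and still above all controls. The mean rose from 91.9 ± 7.27 to 136 ± 12.1 CPM (SD, n = 3), which is 1.48-fold, or 0.57 on the log2 scale (SE 0.08, edgeR adjusted p 0.000228).

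Genes that remove nucleic acids or supply dNTPs were described beside it. Of 16 listed genes, 14 passed the filter; none rose, 5 fell and 9 did not pass the test, with a median log2 fold change of -0.24. All 5 that fell act in dNTP supply. Tk1, the cytosolic thymidine kinase of dividing cells, was at 20.3, 21.5 and 25.3 CPM against 36.2, 37.6 and 39.3 CPM, a difference of -0.75 on the log2 scale (SE 0.10, edgeR adjusted p 0.000109). Rrm2, the S-phase subunit of ribonucleotide reductase, was at 21.6, 23.4 and 27.5 CPM against 39.5, 39.3 and 40.6 CPM, a difference of -0.72 on the log2 scale (SE 0.10, edgeR adjusted p 0.000152). In both genes CRISPRa replicate 5 was the highest of its group and still below every control. The others that fell were Dut, which removes dUTP, Rrm1, the large reductase subunit, and Dck, the deoxycytidine kinase. Dck lost the call without CRISPRa replicate 2 or 3 and without no-sgRNA replicate 3. Rrm2b, the reductase subunit used outside S phase, had a log2 difference of 0.21 (edgeR adjusted p 0.165), and the mitochondrial kinase genes Tk2 (0.08) and Dguok (-0.01) did not pass. Of the genes that remove nucleic acids, Rnaseh2a, Rnaseh2b and Rnaseh2c, which encode RNase H2, had log2 fold changes of -0.23, -0.19 and -0.26, with edgeR adjusted p-values of 0.0797, 0.371 and 0.468. Trex1 had 0 counts in all 6 libraries, and all of its exon bases lie in exons of Atrip on the same strand, so its 0 counts do not measure its expression.

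**Figure D2:**
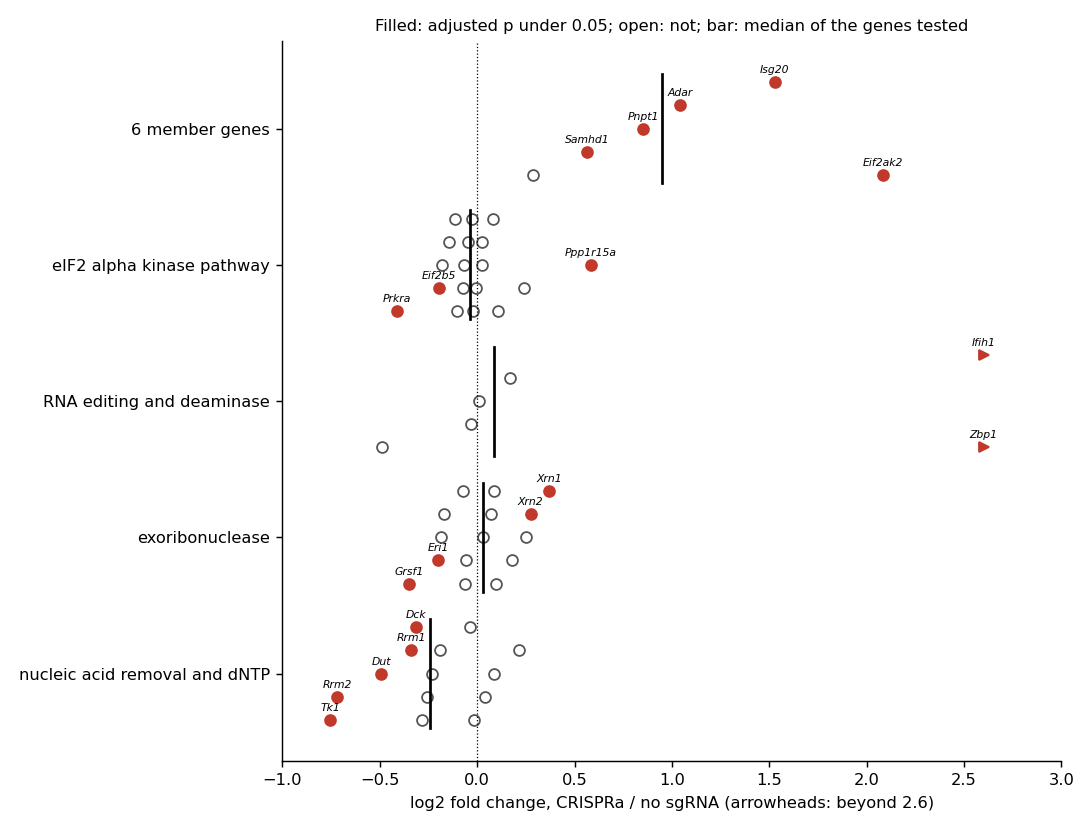
Log2 fold change of CRISPRa against no sgRNA for the 6 genes and for the tested genes of the 4 lists, filled where the edgeR adjusted p is under 0.05, with the median of each row as a bar and Ifih1 and Zbp1 drawn at the edge of the axis. The medians are 0.95 for the 6 genes and -0.04 for the eIF2 alpha kinase pathway. They are 0.09 for editing and deaminases with the sensors Ifih1 and Zbp1, 0.03 for exoribonucleases and -0.24 for nucleic acid removal and dNTP supply.

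The order of the folds among the 6 genes was Eif2ak2, Isg20, Adar, Pnpt1, Samhd1 and Apobec3. Neighbours in this order were compared by their log2 ratio within each library, which cancels the library's depth. The ratio of Eif2ak2 to Isg20 was 3.82, 3.62 and 3.50 with CRISPRa against 2.95, 3.23 and 3.05, with no overlap. The edgeR log2 fold changes of these genes differed by 0.56. For Isg20 over Adar the ratios did not overlap either, and the edgeR log2 fold changes differed by 0.48. Adar over Pnpt1 was at 0.68, 0.60 and 0.59 against 0.58, 0.59 and 0.08. These groups were separate by a margin smaller than 0.01, with no-sgRNA replicate 4, where Adar was low, far below the rest. The edgeR log2 fold changes of Adar and Pnpt1 differed by 0.19. Pnpt1 over Samhd1 overlapped between the groups, at -0.50, -0.44 and -0.09 against -0.46, -0.79 and -0.63. The edgeR log2 fold changes of Pnpt1 and Samhd1 differed by 0.29, so the overlap does not show that their folds were equal. Samhd1 over Apobec3 was at 2.85, 2.96 and 2.76 against 2.54, 2.49 and 2.72, which did not overlap. The edgeR log2 fold changes of Samhd1 and Apobec3 differed by 0.28. With 3 libraries against 3 an exact two-sided permutation test cannot go below p = 0.1, so these ratios are given without a test.

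**Figure D3:**
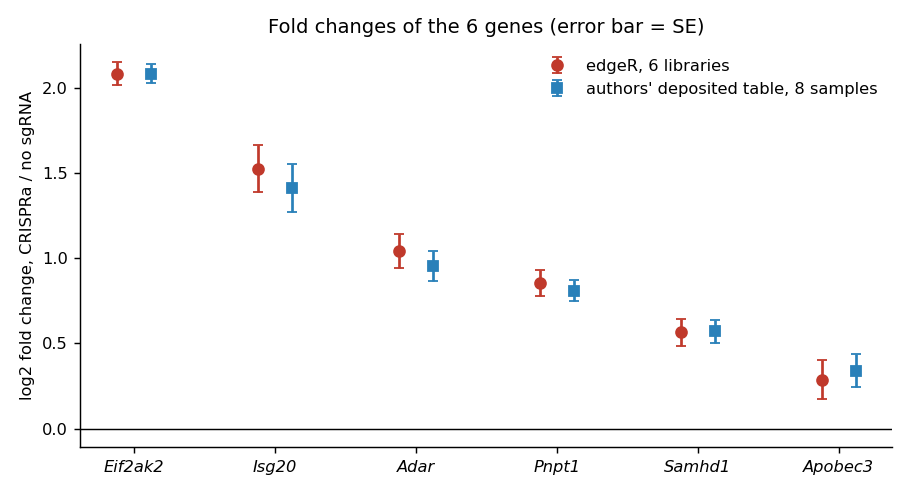
Log2 fold change of CRISPRa against no sgRNA with its SE, from edgeR on 6 libraries (circles) and from the authors' deposited table over 8 samples (squares). Both sets put the 6 genes in the same order, from 2.08 for Eif2ak2 down to 0.29 and 0.34 for Apobec3.

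Levels of different genes were compared as CPM per kilobase of summed exon length. With CRISPRa, Eif2ak2 was the highest at 36.8 ± 1.02 CPM per kb, followed by Pnpt1 at 30.5 ± 2.32, Adar at 20.3 ± 0.979, Samhd1 at 14.9 ± 1.33, Isg20 at 8.08 ± 0.736 and Apobec3 at 1.98 ± 0.0688 (SD, n = 3). No neighbours in this order overlapped. Without the guide, Pnpt1 was the highest at 16.9 ± 0.751 CPM per kb, Samhd1 was at 10.0 ± 0.794, Adar at 9.86 ± 1.71, Eif2ak2 at 8.69 ± 0.253, Isg20 at 2.80 ± 0.197 and Apobec3 at 1.62 ± 0.185 (SD, n = 3). Samhd1 and Adar overlapped there, as did Adar and Eif2ak2, so their order is not fixed by these libraries. Eif2ak2 thus had rank 4 without the guide and rank 1 with CRISPRa. The summed length counts every annotated exon, and for Apobec3 it is 9454 bases against 2765 for its longest protein-coding transcript. With the latter length, chosen after the data were seen, Eif2ak2 kept both places. With CRISPRa, Samhd1 moved above Adar, at 34.6 ± 3.09 against 27.9 ± 1.35 CPM per kb (SD, n = 3), with no overlap, so the order of that pair depends on the length used. Samhd1 moved to first without the guide at 23.4 ± 1.85 CPM per kb with its range overlapping that of Pnpt1, and Apobec3 at 5.54 ± 0.631 moved above Isg20 at 4.79 ± 0.337 (SD, n = 3).

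**Figure D4:**
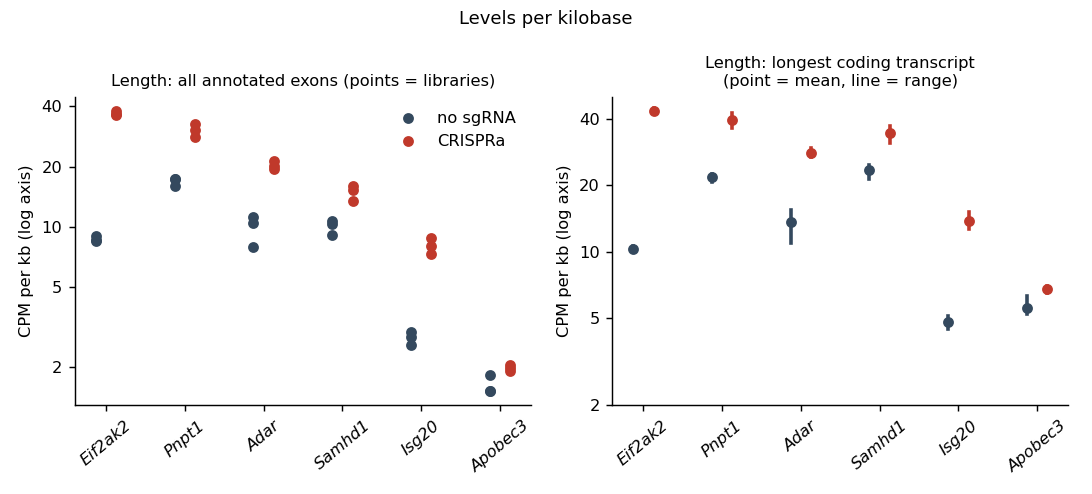
Level of each gene in CPM per kilobase on a log axis, with the length taken over all annotated exons (left, 1 point per library) or from the longest protein-coding transcript (right, mean and range of 3 libraries). Eif2ak2 has rank 4 without the guide and rank 1 with CRISPRa under both lengths, while Samhd1 and Apobec3 change place with the length used.

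Around their group means the 6 genes did not move together from library to library. In CRISPRa replicate 5, log2 CPM was above the group mean for Adar (0.08), Pnpt1 (0.11) and Isg20 (0.13) and below it for Samhd1 (-0.15) and Apobec3 (-0.05), with Eif2ak2 near it (-0.01). In no-sgRNA replicate 4, Adar was 0.30 below its mean (-0.30), and the other 5 genes lay between -0.09 and 0.04. On the 4 libraries left when CRISPRa replicate 5 and no-sgRNA replicate 4 were both taken out, the log2 fold changes were 2.09 for Eif2ak2, 1.47 for Isg20, 0.87 for Adar, 0.82 for Pnpt1, 0.66 for Samhd1 and 0.27 for Apobec3. The same 5 genes passed there, and Apobec3 did not (edgeR adjusted p 0.155).

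For each gene, the 2 tested genes with the most similar pattern were taken as those with the smallest root mean square difference of centred log2 CPM over the 6 libraries, among genes with a mean of at least 1 CPM. For Eif2ak2 they were Ifi35 (difference 0.08) and Stat2 (0.12), and Stat2 stood at 124 ± 15.4 against 31.0 ± 1.90 CPM (SD, n = 3). Those of Isg20 were Oas1c (0.07) and Osgin1 (0.08). Adar was closest to Spint1 (0.09) and Naip6 (0.09), Pnpt1 to Dapp1 (0.05) and Grin1 (0.06), Samhd1 to Dtx1 (0.01) and Pmp22 (0.05), and Apobec3 to Dusp8 (0.03) and D030028A08Rik (0.04). The points share 6 libraries in 2 groups, and 5 of these genes (Spint1, Dapp1, Grin1, Dtx1 and D030028A08Rik) were below 10 CPM in every group mean.

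The authors' deposited table covers 8 samples. In it the log2 fold changes of all 6 genes were positive with adjusted p-values under 0.05, as were those of 14.8% of the genes with an adjusted p in it. The direction of that table is not stated and was read from the 2589 genes called both there and in the 6 libraries, all of the same sign. By the authors' deposited table Eif2ak2 differed by 2.08 on the log2 scale (SE 0.06), Isg20 by 1.41 (SE 0.14), Adar by 0.95 (SE 0.09), Pnpt1 by 0.81 (SE 0.06) and Samhd1 by 0.57 (SE 0.07). Apobec3 differed there by 0.34 (SE 0.10), with 0.00312 as its adjusted p in the authors' deposited table, so it passes there and not in the 6 libraries. Its 8 samples are taken to include these 6 libraries, so the tables are not independent.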

How the data were processed

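The authors deposited whole-number read counts per gene for 6 libraries, with no normalisation, and, beside them, summed exon lengths. STAR 2.5.1b, featureCounts and the mm10 build are named per the submitters' processing notes; annotation, strand use and the handling of multi-mapping reads are not given in the sources used here. The authors' deposited table for 8 samples holds, per the file headers, a signal (mean normalised count), log2 fold changes with SE, a Wald score and p-values, in the layout of DESeq2. Of the 8 samples, 2 (CRISPRa 1, no sgRNA 5) had no counts analysed here.

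Counts were tested with edgeR 4.0.16 in R 4.3.3 (glmQLFit, glmQLFTest), after filterByExpr at its defaults and TMM scaling, with no covariate. P-values were adjusted by Benjamini-Hochberg over all 15117 genes tested, and genes were called at 0.05. The SE is the log2 fold change divided by the square root of F. The fit was tested on simulated data. Levels are TMM-normalised CPM, and log2 CPM used a prior count of 2. Alternatives were RLE, upper-quartile and library-size scaling, 2 other filters, DESeq2 1.42.0, limma-voom (limma 3.58.1), leaving out each library, 4 libraries with and without a replicate block, and an adjusted p of 0.01. Gene spans are as in the count table; 53365 of its 55367 names occur in GENCODE M21 (GRCm38). Promoters are from RefSeq (GRCm38.p6), and all 6 genes matched by symbol.

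Named beside the 6 genes, by rule, were the called genes of 4 lists (at most the 2 largest increases and 2 largest decreases with values), Scn2a, and the 2 genes most alike to each of the 6. Uncalled list genes, Chrnb2, Pecam1 and Col1a1 were named after their values were seen. The 6 genes and the lists were chosen with earlier results of these data known. Some genes of the lists and markers are counted but not reported here by name.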

Additional observations from a re-analysis of the deposited data

How the results depend on the processing

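In all 16 alternatives run for it, the number of the 6 genes called was 5, all higher. Eif2ak2, Adar, Pnpt1, Isg20 and Samhd1 passed, and Apobec3 did not, in each of the 15 refits, where its log2 fold change ran from 0.24 (no-sgRNA replicate 2 left out) to 0.38 (no-sgRNA replicate 3 left out), and the adjusted p-values lay between 0.0581 and 0.231. The median of the 6 genes was 0.84 on the 4 libraries numbered 2 and 3, both with the replicate number as a block (0.8448) and without it (0.8447). These fits use fewer libraries and lack no-sgRNA replicate 4, the lowest control for Adar. The log2 fold change of Adar was 0.87 in both, against 1.04 in the main fit. Leaving out 1 library gave medians from 0.89 (no-sgRNA replicate 4) to 1.01 (no-sgRNA replicate 2). Changed genes over all genes tested numbered 1417 at an adjusted p of 0.01, where the stricter threshold is the cause, against 2829, and 1987 to 2518 with 1 library left out. With the block they numbered 3170 and without it on the same libraries 2830. The pairing rests only on the numbers in the titles. Deviations of equally numbered samples from group means correlated at -0.00459 and -0.0256 across 15117 genes, so no pairing was seen. With only the numbers 2 and 3 in common, this cannot exclude that equally numbered samples were handled together. The 4 lists stayed within 1.5 times of their counts in every alternative run, but the number called higher could change. In the eIF2 alpha kinase pathway list, 2 genes rose under RLE scaling, against 1 in the main fit. In the nucleic acid removal and dNTP list, 7 were called without no-sgRNA replicate 2, and 1 of them rose, where none did in the main fit. The number of genes with an ISRE core was 2 over the 300-base window and 5 with 1 mismatch, where the wider search is the cause, against 1. Scaling moved the median of all genes by less than 0.1 on the log2 scale.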
